A study of Mus musculus with 6 samples.

Results

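Genes that mark the primitive streak and the mesoderm emerging from it were followed in mouse embryonic stem cells with and without BMP inhibitors. They were chosen by name: T, Mixl1, Evx1, Mesp1, Mesp2, Kdr, Tbx6, Gsc, Lhx1 and Snai1. All 10 were found by symbol among the 53465 genes of the count tables. Cells of the established line Royan B20 had been passaged 7 times in R2i with LIF on gelatin. Every culture therefore received 1 µM of the MEK inhibitor spelled PD0329501 in the labels and 10 µM SB431542, which blocks the activin, nodal and TGF-beta type I receptors. The 3 control libraries (R2i_control) had no further treatment. The 3 BMP-inhibited libraries (R2i_BMPi) also received 250 nM noggin, which captures BMP ligands outside the cell, and 5 µM dorsomorphin, a kinase inhibitor that acts on BMP type I receptors. The labels name 1 cell line, call the libraries biological replicates and give no duration for the inhibitors. Whether the replicates were separate cultures is not stated further, and p-values measure the spread between these libraries.

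The primitive streak is the site in the gastrulating embryo where epiblast cells lose their epithelial form and become mesoderm or endoderm. BMP from the extraembryonic ectoderm, WNT and nodal together induce it, and the T-box, homeobox and bHLH transcription factors listed here are switched on in overlapping zones along it. Embryonic stem cells in a self-renewing state normally keep these genes close to silent.

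Poly(A) RNA was sequenced, and the libraries held 31474666 to 35322844 counts in genes, so that 1 read was worth 0.0276 to 0.0323 CPM (counts scaled to library size, with TMM factors for composition). A library with 0 counts allows a level of up to 0.0828 to 0.0969 CPM by counting error alone. Pou5f1, Sox2 and Nanog, the core stem cell factors that define the labelled cell type, were all detected at high levels, at 367 ± 14.6, 217 ± 3.81 and 395 ± 4.88 RPKM in controls and 394 ± 29.0, 182 ± 13.8 and 285 ± 5.36 RPKM in BMP-inhibited cells (SD, n = 3; RPKM is CPM per kilobase of exon). Of 10 pluripotency genes 5 fell, Nanog by 0.47 and Sox2 by 0.25 on the log2 scale among them, and 2 rose, while Pou5f1 did not pass the test (edgeR adjusted p = 0.0809). Their summed level was 5063 to 5218 CPM in controls and 4625 to 4872 CPM in BMP-inhibited libraries, and its part in the results that follow was not tested. BMP-inhibited replicate 2 stood apart from its group on the second principal component, at 27.2 against -20.4 and -4.43, and the called members are also given without it. Of 15951 genes tested with edgeR's quasi-likelihood test, 32.5% were called higher and 31.7% lower in BMP-inhibited cells at an adjusted p of 0.05, and the groups did not overlap for 68.6%.

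Against that background, 6 of the 10 members passed the count filter; of these Evx1, Mesp2, Kdr and Snai1 rose, Tbx6 and Gsc did not pass the test, and 0 fell. The count of 0 was also 0 at an unadjusted p of 0.05, and with DESeq2 and limma-voom. Evx1 and Kdr reached the filter, a level of about 0.302 CPM in 3 libraries, through the BMP-inhibited libraries alone and so could only be seen as higher. The share of risers among those tested is therefore not a measure of the 10 genes. Groups were separate for 4 of the 6, which is near the share over all genes tested. T, Mixl1, Mesp1 and Lhx1 stayed below the filter and are described by their counts. Without BMP-inhibited replicate 2 the number of members called higher was again 4. In these bulk libraries a change in the number of cells of a type and a change in RNA per cell cannot be told apart.

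**Figure D1:**
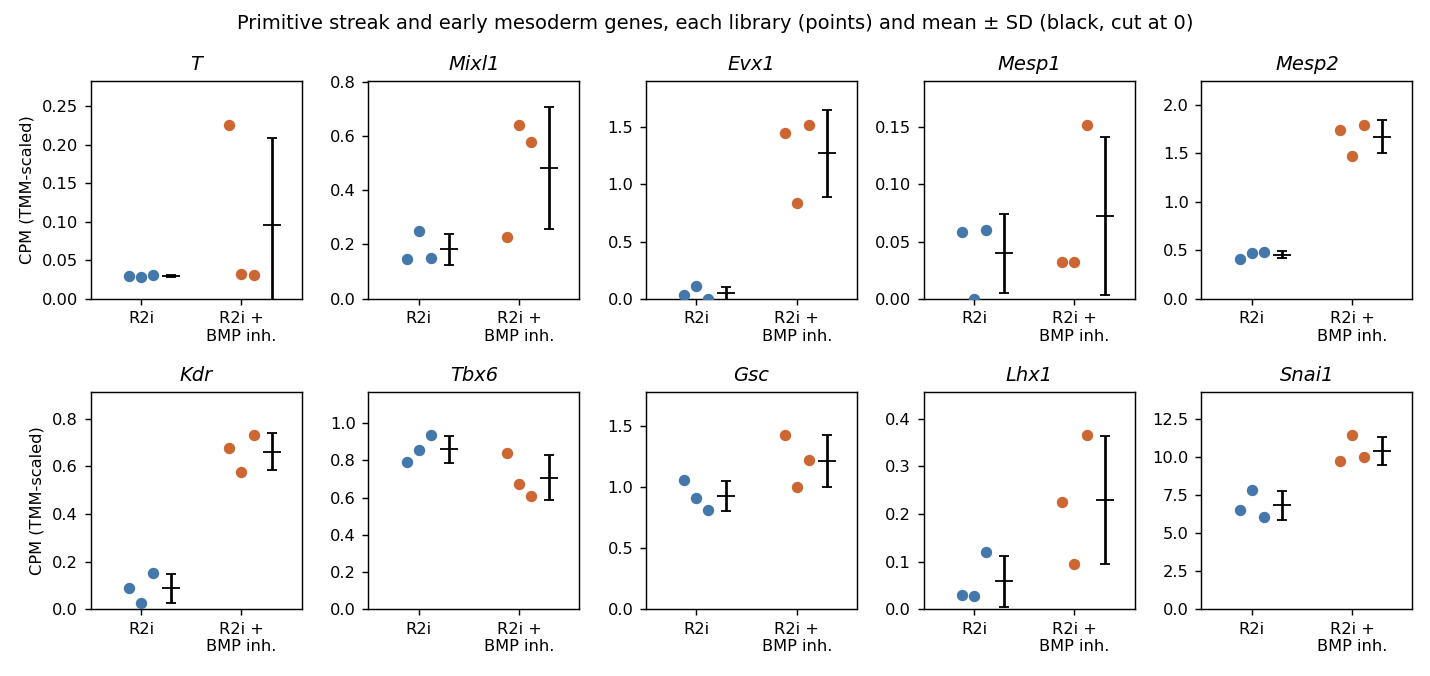
Level of each of the 10 genes in TMM-scaled CPM (vertical axes from 0, each with its own scale) in 3 R2i control libraries (blue) and 3 libraries with BMP inhibitors (orange); black marks show mean ± SD over 3 libraries. The groups are clearly apart for Evx1, Mesp2, Kdr and Snai1, while the higher mean of T comes from 1 library.

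The members spanned a wide range of levels per exon length, and all were far under the core stem cell factors. In control cells Snai1 led at 4.21 ± 0.574 RPKM (SD, n = 3), followed by Gsc at 0.730 ± 0.0949, Tbx6 at 0.477 ± 0.0402, Mesp2 at 0.233 ± 0.0199 and Mixl1 at 0.0792 ± 0.0251 RPKM. Each of these 5 was above the next in every control library. Below them the ranges of Mesp1, Evx1, Lhx1, T and Kdr overlapped from one gene to the next, at mean levels of 0.0311, 0.0162, 0.0145, 0.0125 and 0.00982 RPKM. In BMP-inhibited cells Mesp2, at 0.860 ± 0.0882 RPKM, overlapped Gsc at 0.955 ± 0.168, and Evx1, at 0.441 ± 0.132, overlapped Tbx6 at 0.392 ± 0.0659. By mean level Evx1 was the seventh of the 10 in controls and the fourth in BMP-inhibited cells. Mixl1 was at 0.210 ± 0.0977 RPKM there, and Kdr, Mesp1, Lhx1 and T, between 0.0416 and 0.0733 RPKM, could not be ordered beyond their spread.

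**Figure D2:**
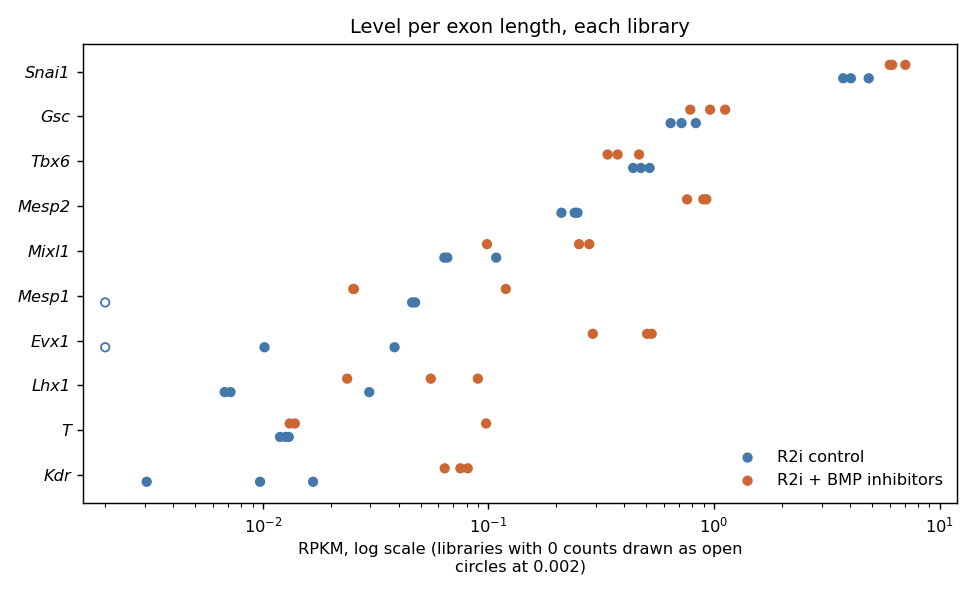
RPKM of the 10 genes (horizontal log axis) in each control library (blue) and each BMP-inhibited library (orange), ordered by the control mean; libraries with 0 counts are open circles at the left. Snai1 is highest in both groups, and Evx1 shows the widest gap between groups.

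T, or brachyury, is the founding T-box transcription factor and the classic marker of the whole streak and the notochord. It lies on chromosome 17 of GRCm38 at 8434423 to 8442496 (ENSMUSG00000062327). The control libraries held 1, 1 and 1 counts and the BMP-inhibited libraries 7, 1 and 1. All but 1 of the libraries were thus at a single read, and BMP-inhibited replicate 1 alone carried more. The ratio over the groups was 3.27 with a 95% counting interval of 0.817 to 18.8, and no difference was detectable at this depth. With no count filter the adjusted p was 0.297.

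Tbx6, a T-box factor that directs cells to paraxial mesoderm rather than neural fate, had 27, 31 and 31 counts in controls and 26, 21 and 20 in BMP-inhibited libraries. It is found on chromosome 7 at 126781483 to 126785560 (ENSMUSG00000030699). The groups overlapped, at 0.860 ± 0.0725 and 0.708 ± 0.119 CPM (SD over 3 libraries). The log2 fold change was -0.28 (SE 0.31, 95% interval -0.93 to 0.37, edgeR adjusted p = 0.435) and did not pass. BMP-inhibited replicate 1 lay within the control range and the other libraries of its group below it.

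The promoter of T is shown because this gene is the reference marker of the streak and its window holds a match to a WNT-response word. The window is the 250 bases before the RefSeq start on GRCm38.p6, chr17:8434173-8434422, plus strand. Here and in the windows that follow, read 5′ to 3′, capitals mark matches on either strand to CTTTGA (the core word bound by TCF and LEF factors), the T-box word AGGTGTGA, the bicoid-type core GGATT or the SMAD word CAGAC.
T: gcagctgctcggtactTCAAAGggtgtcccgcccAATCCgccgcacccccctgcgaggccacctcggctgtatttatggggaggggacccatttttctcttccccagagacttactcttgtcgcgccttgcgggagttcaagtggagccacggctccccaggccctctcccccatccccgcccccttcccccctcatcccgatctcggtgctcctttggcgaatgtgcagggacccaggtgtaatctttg
Its TCF and LEF core begins 234 bases before the start and its bicoid-type core 216 bases before it.

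Among the homeobox genes, Evx1 showed the largest change of the 10 members. Evx1, a factor of the posterior streak whose gene flanks the HOXA cluster, lies on chromosome 6 at 52313498 to 52318378 (ENSMUSG00000005503). The control libraries held 1, 4 and 0 counts and the BMP-inhibited libraries 45, 26 and 50. Every treated library was well above every control, and replicate 2 was the lowest of the treated ones. The level rose from 0.0465 ± 0.0572 to 1.27 ± 0.379 CPM (SD over 3 libraries), a log2 fold change of 4.62 (SE 0.59, edgeR adjusted p = 4.02e-06). Summed counts of 5 and 121 gave a 26.4-fold ratio with a 95% counting interval of 11 to 82.8. The size rests on few control reads: without control replicate 2 the log2 fold change was 6.08, and without BMP-inhibited replicate 2 it was 4.85.

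Evx1os, a non-coding gene on the opposite strand, shares exon sequence with Evx1 and had 1, 2 and 2 counts in controls and 14, 7 and 28 in BMP-inhibited libraries. Its ratio was 10.7 with a counting interval of 4.28 to 34.4, and it did not pass the count filter. The library kit marks strand but the strand setting of the counting is not given in the sources used here, so reads of these genes may not be separable. The Evx1 window, shown because this gene changed most, is chr6:52313248-52313497, plus strand.
Evx1: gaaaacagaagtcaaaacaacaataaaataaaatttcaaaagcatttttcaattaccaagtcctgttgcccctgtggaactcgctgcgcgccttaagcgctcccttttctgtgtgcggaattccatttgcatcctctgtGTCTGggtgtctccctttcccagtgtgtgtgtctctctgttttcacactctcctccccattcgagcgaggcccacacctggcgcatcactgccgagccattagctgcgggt
It held 1 SMAD word, 111 bases before the start, and no match to the other words.

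Mixl1, a homeobox factor of the streak that acts in mesoderm and endoderm formation (ENSMUSG00000026497, chromosome 1 at 180693043 to 180697034), had 5, 9 and 5 counts in controls and 7, 20 and 19 in BMP-inhibited libraries. BMP-inhibited replicate 1 lay within the control range, while the other 2 were above it. The ratio was 2.64 with a counting interval of 1.52 to 4.77. Mixl1 was below the count filter in the comparison as designed. With no filter, where 19.8% of 28371 genes were called higher, its log2 fold change was 1.38 (SE 0.54, adjusted p = 0.0253), and without BMP-inhibited replicate 1 it was 1.72 (adjusted p = 0.00539). It also passed without control replicate 2 (adjusted p = 0.0334), but not without control replicate 1 or 3 (adjusted p = 0.0843 and 0.0803). In these fits with a library left out, Mixl1 passed the count filter through BMP-inhibited libraries alone. It could therefore be called only higher in them.

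Lhx1, a LIM-homeobox gene of the anterior streak and later of lateral and intermediate mesoderm (ENSMUSG00000018698, chromosome 11 at 84518284 to 84525535), had 1, 1 and 4 counts in controls and 7, 3 and 12 in BMP-inhibited libraries. BMP-inhibited replicate 2 lay within the control range and the others above it. The ratio was 4.0 (95% counting interval 1.57 to 12.1), and with no count filter the log2 fold change was 1.91 (SE 0.84, adjusted p = 0.0478). Goosecoid (Gsc), a repressor that marks the organizer end of the streak, was more abundant and steadier, with 36, 33 and 27 counts against 44, 31 and 40. Its gene is ENSMUSG00000021095, on chromosome 12 at 104471209 to 104473330. Its groups overlapped at 0.926 ± 0.120 and 1.21 ± 0.213 CPM (SD over 3 libraries), and the log2 fold change of 0.39 (SE 0.27, 95% interval -0.20 to 0.97, edgeR adjusted p = 0.229) did not pass.

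Mesp2 and Mesp1 are neighbouring bHLH genes; Mesp1 marks the earliest cardiac and craniofacial mesoderm, and Mesp2 is best known for placing somite boundaries. They lie on chromosome 7 at 79810727 to 79813439 (Mesp2, ENSMUSG00000030543) and 79792241 to 79793788 (Mesp1, ENSMUSG00000030544), 16939 bases apart and on opposite strands. Mesp2 had 14, 17 and 16 counts in controls and 54, 46 and 59 in BMP-inhibited libraries. It passed the filter in all 6 libraries, and the groups did not overlap. The level rose from 0.454 ± 0.0387 to 1.67 ± 0.172 CPM (SD over 3 libraries), by 1.87 on the log2 scale (SE 0.28, edgeR adjusted p = 2.77e-05). Without BMP-inhibited replicate 2 the log2 fold change was 1.96.

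Mesp1 stayed at the edge of detection, with 2, 0 and 2 counts in controls and 1, 1 and 5 in BMP-inhibited libraries. Its ratio of 1.91 had a counting interval of 0.485 to 8.89, which includes the size of the Mesp2 change, so a difference between these genes was not shown and was not tested. No other annotated transcript matched Mesp1 or Mesp2 at 90% identity or more over 50% of its length, and the same held for the remaining 8 members. Both windows are printed as a pair: Mesp1 at chr7:79793591-79793840, minus strand, and Mesp2 at chr7:79810477-79810726, plus strand.
Mesp1: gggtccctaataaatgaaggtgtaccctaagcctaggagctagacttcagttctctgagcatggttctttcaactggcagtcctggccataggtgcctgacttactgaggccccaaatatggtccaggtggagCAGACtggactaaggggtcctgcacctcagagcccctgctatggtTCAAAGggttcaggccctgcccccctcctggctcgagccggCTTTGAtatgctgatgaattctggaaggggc
Mesp2: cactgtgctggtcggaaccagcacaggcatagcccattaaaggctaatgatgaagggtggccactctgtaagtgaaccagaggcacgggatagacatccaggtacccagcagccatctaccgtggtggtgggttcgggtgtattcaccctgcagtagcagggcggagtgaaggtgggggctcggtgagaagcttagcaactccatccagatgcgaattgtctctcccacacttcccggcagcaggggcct
The Mesp1 window held 2 TCF and LEF cores, 72 and 31 bases before the RefSeq start, and 1 SMAD word at 117 bases. The GENCODE annotation places the start of Mesp1 at 79793788, within this window. All of these matches lie inside the gene as annotated there. The window of Mesp2 held none of these words.

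Snai1, a zinc-finger repressor of E-cadherin that drives the epithelial-mesenchymal transition at the streak, was the most abundant member. It lies on chromosome 2 at 167538195 to 167542814 (ENSMUSG00000042821). Counts were 224, 285 and 201 in controls and 302, 356 and 328 in BMP-inhibited libraries. The groups did not overlap, and the level rose from 6.83 ± 0.931 to 10.4 ± 0.907 CPM (SD over 3 libraries), by 0.60 on the log2 scale (SE 0.12, edgeR adjusted p = 0.000403). This was the smallest of the 4 called changes, and it was 0.53 without BMP-inhibited replicate 2. Cdh1, the E-cadherin gene that Snai1 is known to repress, rose as well, from 437 ± 2.18 to 657 ± 5.67 CPM (log2 fold change 0.59, SE 0.04).

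Kdr encodes VEGF receptor 2, a tyrosine kinase found on lateral mesoderm and on the precursors of blood and endothelium. It lies on chromosome 5 at 75932827 to 75978458 (ENSMUSG00000062960). Counts went from 3, 1 and 5 in controls to 21, 18 and 24 in BMP-inhibited libraries, with no overlap. The level rose from 0.0887 ± 0.0616 to 0.662 ± 0.0777 CPM (SD over 3 libraries), by 2.87 on the log2 scale (SE 0.51, edgeR adjusted p = 0.000126). Without BMP-inhibited replicate 2 the log2 fold change was 2.97. Per exon length Kdr was still among the lowest members, at 0.0733 ± 0.00861 RPKM. Of the other VEGF receptor genes, Flt4 was tested through both groups and rose by 0.87 (SE 0.17). Flt1 rose by 1.43 (SE 0.42), but like Kdr it passed the count filter through the BMP-inhibited libraries alone, so its direction was set by the filter. The Kdr window, shown to complete the members with a log2 rise of over 1, lies at chr5:75978456-75978705, minus strand.
Kdr: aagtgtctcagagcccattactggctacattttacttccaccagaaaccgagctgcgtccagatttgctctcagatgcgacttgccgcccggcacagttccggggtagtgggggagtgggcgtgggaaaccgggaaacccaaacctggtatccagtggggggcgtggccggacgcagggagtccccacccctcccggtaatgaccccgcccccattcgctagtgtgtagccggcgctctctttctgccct
None of the words was found in it.

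Endothelial marker genes, given beside Kdr because it is one of their class, differed widely in level. Of 10 markers 7 were tested, of which 4 rose and 2 fell. All 4 that rose (Tie1, Esam, Robo4 and Erg) passed the count filter through the BMP-inhibited libraries alone and could be called only higher. The 2 that fell, Pecam1 and Plvap, were tested through both groups. Their log2 fold changes were -0.49 (SE 0.08) and -0.54 (SE 0.14). The summed level was 194 to 201 CPM in controls and 143 to 181 CPM in BMP-inhibited libraries, most of it from Pecam1 and Tek, at 4649 to 5340 and 1552 to 1682 counts in the control libraries. Tie1, an orphan receptor of endothelium, went from 0, 2 and 5 counts to 99, 68 and 144, a 48.5-fold ratio with a counting interval of 23.2 to 122. Esam and Robo4, a junction protein and a guidance receptor of endothelium, rose by 3.79 and 3.72 on the log2 scale, and Erg, a transcription factor of that lineage, by 2.39. Cdh5, the endothelial cadherin, was below the filter with 3 counts in controls and 31 in BMP-inhibited libraries. Sox18 was below it too, with 7 and 38 counts. Tek did not pass the test, and Emcn was at 0 in all 6 libraries. The part of endothelial-type cells in the Kdr value was not tested.

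**Figure D3:**
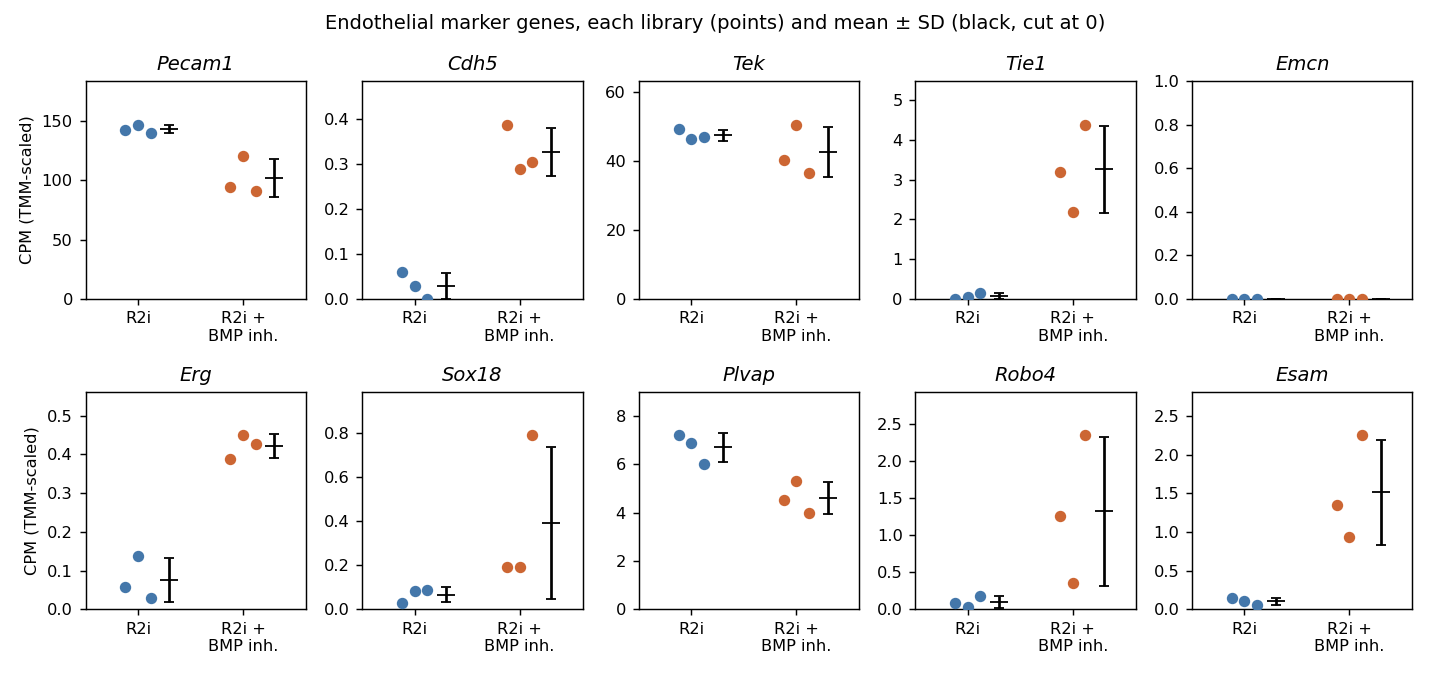
Endothelial marker genes in TMM-scaled CPM (vertical axes from 0, each with its own scale) in control libraries (blue) and BMP-inhibited libraries (orange), with mean ± SD over 3 libraries in black. Tie1, Esam, Robo4, Erg, Cdh5 and Sox18 are higher in every BMP-inhibited library, Pecam1 and Plvap are lower, Tek overlaps, and Emcn is at 0.

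Other lineages' markers were followed as well, and their part in the values above was not tested. Over all genes tested, 32.5% were called higher and 31.7% lower. The summed level of 10 trophectoderm markers was 220 to 226 CPM in controls and 370 to 447 CPM in BMP-inhibited libraries. Of 8 tested, 6 were higher and 0 lower. The most abundant risers were Krt8 and Krt18, at means of 89.96 and 78.26 CPM in BMP-inhibited libraries. Their log2 fold changes were 2.31 and 2.70. Gata3, Hand1, Tead4 and Ascl2 rose too, while Tfap2c and Eomes did not pass the test. Elf5 and Cdx2 were below the count filter. For 10 primitive endoderm markers the summed level was 180 to 186 against 236 to 248 CPM (4 higher and 2 lower of 8). Most of it came from Lamb1 and Col4a1, at means of 77.8 and 74.1 CPM in controls. Lamb1 and Col4a1 rose by 0.72 and 0.31 on the log2 scale. Gata6 and Pdgfra also rose, from 0.376 and 0.871 CPM, while Gata4 and Sox7 had log2 fold changes of -0.74 and -1.08. For 10 neuroectoderm markers the summed level was 173 to 179 against 169 to 204 CPM (2 higher and 1 lower of 7). Fibroblast markers stood at 6.14 to 7.64 against 14.9 to 16.0 CPM (4 higher and 0 lower of 6). Col3a1, Acta2 and Lum had 0 counts in controls and 24, 226 and 1 in BMP-inhibited libraries. Dcn had 1 count in each group. The list of 2-cell-like genes went from 0.0276 to 0.176 CPM in controls to 32.4 to 46.8 CPM in BMP-inhibited libraries. All 10 of its genes reached the count filter through the BMP-inhibited libraries alone and could be called only higher, and copies within the Zscan4 family can share reads. Hand1 among the trophectoderm markers and Acta2 and Postn among the fibroblast markers passed the count filter through the BMP-inhibited libraries alone, so 5 of the 6 and 2 of the 4 risers could have been called in either direction. At an unadjusted p of 0.05, 0 of the tested genes of either list were lower.

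Genes placed upstream of the streak, from nodal, WNT, FGF and BMP signalling, moved in both directions. Of 29 tested out of 30, 13 rose and 8 fell, with a median log2 fold change of 0.18 against -0.00 over all genes tested. The shares were 44.8% and 27.6%, beside 32.5% and 31.7% over all genes tested. Lef1, a nuclear effector of WNT signalling, rose from 2.05 ± 0.0289 to 10.7 ± 2.12 CPM (log2 fold change 2.38, SE 0.16), and Fgfr1, an FGF receptor needed for cells to leave the streak, rose by 0.46. Fgf4, the main FGF of stem cells, went from 521 ± 6.20 to 308 ± 18.6 CPM (log2 fold change -0.76, SE 0.05). Foxh1, the SMAD partner of the nodal pathway, and Acvr1b, the nodal and activin type I receptor, had log2 fold changes of -0.64 and -0.58. Other genes of that pathway differed in direction. Nodal, Acvr2b, Smad2 and Smad3 rose by 0.49, 0.62, 0.34 and 0.26, and Tdgf1 had a log2 fold change of -0.26. Acvr2a and Smad4 did not pass the test. Lef1 and Fgfr1 overlap antisense genes.

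Among posterior streak and tail-bud genes, Axin2, Wnt5a, Wnt5b and Cdx1 rose. Of 7 tested out of 15, 4 rose and 0 fell (2 at an unadjusted p of 0.05), with a median log2 fold change of 1.83. The share of risers was 57.1%, beside 32.5% over all genes tested. Axin2, a feedback target of WNT signalling, rose from 5.04 ± 0.420 to 18.8 ± 1.70 CPM (SD over 3 libraries; log2 fold change 1.90, SE 0.11). The ligand genes Wnt5a and Wnt5b rose by 2.75 and 2.21, and Cdx1, a caudal homeobox gene, by 1.83 (SE 0.49). Axin2 and Wnt5a overlap antisense genes. This list depends on which low genes are tested: 7 rose without control replicate 1, 2 or 3, where 10 were tested, and 2 fell without control replicate 1. When either BMP-inhibited replicate 1 or 2 was left out, 1 fell.

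Later mesoderm genes also included fallers. Of 19 tested out of 30, 10 rose and 4 fell, with a median log2 fold change of 0.98, and Hand1, a bHLH factor of extraembryonic and lateral mesoderm and of trophoblast, led with 5.92 (SE 0.31). Tbx20 and Isl1, transcription factors of the heart field, rose by 1.26 and 1.54, and Tcf15, a bHLH factor of paraxial mesoderm, by 1.31. Gata4, a factor of heart and endoderm, went from 13.0 ± 0.794 to 7.76 ± 0.0244 CPM (SD over 3 libraries; log2 fold change -0.74, SE 0.10). As with Evx1 and Kdr, Hand1 could be called only higher, and so could Flt1, which leaves 8 risers tested through libraries of both groups. Pcdh8 passed the filter in the same way and was not called higher. Conversely, Lmo2 passed the filter through the control libraries alone and could be called only lower. The median includes all of these genes, so it is not a measure of the list. The shares called were 52.6% higher and 21.1% lower, beside 32.5% and 31.7% over all genes tested.

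Anterior streak, node and endoderm genes showed no common direction. Of 11 tested out of 16, 4 rose and 2 fell, with a median log2 fold change of 0.17. The shares were 36.4% and 18.2%, beside 32.5% and 31.7% over all genes tested. Lefty2, a nodal antagonist and target, went from 2.55 ± 0.543 to 0.608 ± 0.307 CPM (log2 fold change -2.06, SE 0.33). Gata6, Hhex, Foxj1 and Nog, which encode 2 endoderm regulators, a regulator of motile cilia and noggin itself, rose by 1.63, 0.36, 0.73 and 1.43, each from under 10 CPM, and of these Nog passed the count filter through the BMP-inhibited libraries alone. Without BMP-inhibited replicate 1 only 2 of this list rose, and 1 fell without that library, without control replicate 1 or 3, or without BMP-inhibited replicate 3. Gata6 is on the later mesoderm list as well and overlaps an antisense gene.

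Epithelial-mesenchymal genes, the class in which Snai1 acts, moved in both directions. Of 19 tested out of 20, 7 rose and 5 fell, with a median log2 fold change of 0.20. These shares, 36.8% and 26.3%, were near the 32.5% and 31.7% over all genes tested. Beside Cdh1, Itgb1, an integrin subunit, rose by 0.55 (SE 0.04). Fn1, the fibronectin gene, went from 1914 ± 40.1 to 1361 ± 46.4 CPM (log2 fold change -0.49), and the epithelial genes Crb3 and Cldn7 had log2 fold changes of -0.81 and -0.63. Fn1 and Crb3 overlap antisense genes.

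**Figure D4:**
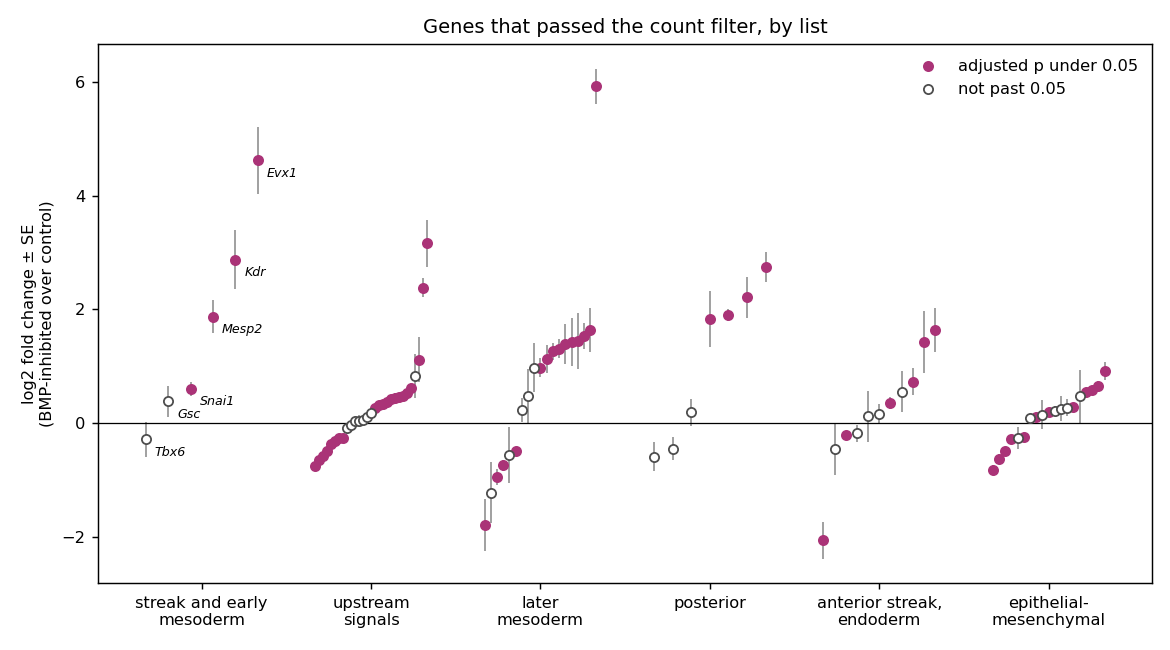
Log2 fold change ± SE (vertical axis, BMP-inhibited over control) of each gene that passed the count filter, in 6 lists along the horizontal axis, sorted within a list; filled points have an edgeR adjusted p under 0.05. Evx1, Kdr and Mesp2 lie well above 0 among the streak genes, and the point at 5.92 among later mesoderm genes is Hand1.

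Promoter windows were found for 9 of the 10 members. All words were searched on both strands. The TCF and LEF core was in 2 of the 9 windows (T and Mesp1) and in 13.8% of 32851 windows of the same length in the RefSeq table. The longer TCF and LEF word, CTTTGA followed by A or T at both of the next positions, was in the Mesp1 window alone and in 3.71% of all windows. The SMAD word was in 4 of 9 (Evx1, Mesp1, Tbx6 and Lhx1) against 42.2%, and the bicoid-type core, which includes the longer word GGATTA, in 4 of 9 (T, Tbx6, Lhx1 and Gsc) against 31.4%. The longer bicoid-type word, the T-box word and the SMAD palindrome GTCTAGAC were in 0 of 9, against 6.25%, 1.12% and 0.167%. GC content ran from 49.6% for Evx1 to 70.0% for Snai1, with a median of 52.4% over all windows. The Mesp1 matches lie before the RefSeq start but inside that gene as GENCODE annotates it. A match is a description of these letters and no site.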

How the data were processed

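The authors deposited raw read counts per gene, in a table for each of the 6 libraries. Listed without roles, per the submitters' processing notes, are STAR (2.6.1), DESeq2, HTSeq (0.9.1), cutadapt (1.4.2), CASAVA (1.8.2) and the build GRCm38.p6. Annotation release and strand setting are not given in the sources used here. The 5 rows naming no gene, 25.6% to 26.4% of reads, were left out. Symbols, positions and exon lengths came from GENCODE M21 (GRCm38), which matched 53360 of 53465 identifiers.

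All genes were fitted with edgeR 4.0.16 (R 4.3.3), with its default filter (minimum count 10, scaled, and total 15), TMM scaling, the quasi-likelihood test, two-sided, and Benjamini-Hochberg adjustment over all genes tested. The standard error was derived from the coefficient and its F statistic. Ratios of summed counts have exact 95% binomial intervals, which cover counting error only. Alternatives were DESeq2 1.42.0, limma-voom (3.58.1), other scalings and filters, a replicate block and leaving out each library. The test was checked on simulated counts drawn with a common dispersion for all genes and both groups. In the data, chi-square per gene was 2.31 to 3.03 between control libraries and 8.22 to 10.7 between BMP-inhibited libraries. The check does not cover this difference in spread. BLAST 2.17.0 was used to look for near-identical transcripts, and promoters are RefSeq's (GRCm38.p6); the short TCF/LEF and bicoid-type cores were searched in addition to the longer words, after the data were seen.

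All 10 members were named whatever their result, with up to 5 called genes of smallest p from each of 5 wider lists. Flt1, Flt4, Evx1os, the marker genes and the neighbouring genes were named outside this rule, after their values were seen. So were Pcdh8, Lmo2, Nodal, Acvr2a, Acvr2b, Smad2, Smad3, Smad4 and Tdgf1. Members and lists were chosen with earlier results of these data known.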

Additional observations from a re-analysis of the deposited data

How the results depend on the processing

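Evx1, Mesp2, Kdr and Snai1 kept their rise and their call under every alternative that tested them, with adjusted p-values of at most 8.95e-05, 0.000376, 0.00178 and 0.00495. Under the filtered settings Evx1 and Kdr were tested through the BMP-inhibited libraries alone and could be called only higher. The stricter filter did not test them. The same limit on direction held for Mixl1 where leaving out a library brought it past the filter. Tbx6 and Gsc did not pass under any alternative run. The number of members called higher was 4 with the other tools, the other scalings and the replicate block, 6 with no count filter (Mixl1 and Lhx1 added), 2 with the stricter filter of 1 CPM in 3 libraries, where 3 were tested, and 4 to 5 with 1 library left out; 0 fell under every setting. Deviations of same-numbered libraries from their group means correlated at -0.0443, 0.00791 and 0.0287. With 3 libraries in a group this cannot decide whether replicate numbers mark pairs. Later mesoderm genes called higher numbered 6 with the stricter filter. Those called lower, 4 in the main fit, numbered 3 to 6 with other tools, scalings, filters or the block. With 1 library left out they numbered 5 to 6. Epithelial-mesenchymal genes called higher numbered 5 to 8 with 1 library left out. Posterior genes called higher numbered 8 with no filter and 5 to 7 with 1 library left out. Posterior genes called lower numbered 2 with library totals only, 1 with no filter, 1 with the stricter filter and 0 to 2 with 1 library left out. Anterior streak and endoderm genes called higher numbered 2 with the stricter filter and 2 to 4 with 1 library left out, and 1 to 2 were called lower with 1 library left out. The filter changes how many genes are tested; other causes of these moves were not tested. Depth limits T, Mesp1 and Lhx1 most, each with at most 12 counts in a library.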

Other observations

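Genes next to the members moved in both directions, as did all genes tested, of which 32.5% were called higher and 31.7% lower. On chromosome 7, Wdr93 lies 6291 bases from Mesp1 and went from 3.75 ± 0.402 to 1.09 ± 0.226 CPM (SD over 3 libraries; log2 fold change -1.77, SE 0.21, edgeR adjusted p = 2.31e-06). On the other side Anpep, an aminopeptidase gene 8364 bases from Mesp2, rose from 9.89 ± 0.458 to 16.2 ± 1.12 CPM (log2 fold change 0.71, SE 0.09). Mesp2 rose by 1.87 between them. T2, the gene 10910 bases from T on chromosome 17, had 40, 39 and 48 counts in controls and 7, 14 and 10 in BMP-inhibited libraries, with no overlap (log2 fold change -1.90, SE 0.35, adjusted p = 0.000193), while T stayed at the edge of detection. T2 shares exon sequence with other annotated genes on both strands, so its counts are uncertain. Farther from T, Pde10a at 82876 bases and Prr18 at 90310 bases rose by 1.48 and 3.94. Prr18 had only 5, 3 and 10 counts in controls. Hoxa13, the protein-coding HOXA gene nearest to Evx1 at 52618 bases, had 20 counts in controls and 25 in BMP-inhibited libraries, against 5 and 121 for Evx1. Farther into the cluster Hoxa7, at 91644 bases, rose (138 and 222 counts, log2 fold change 0.81, SE 0.22, edgeR adjusted p = 0.0045), and it overlaps an antisense gene. Hoxa10 (16 and 42 counts) and Hoxa9 (11 and 26 counts) were below the filter with groups that did not overlap. The groups were also apart for 68.6% of all genes tested. The nearest protein-coding neighbours of Snai1, Rnf114 and Spata2, lie on the same side of it. They had log2 fold changes of -0.36 and -0.18 beside the Snai1 rise of 0.60. On the other side Ube2v1, at 64824 bases, did not pass the test.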
